A study of Mus musculus with 6 samples.

Results

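The genes of the epidermal growth factor (EGF) family were examined in cultured mouse osteoblasts with and without C5a, the complement fragment that acts through the receptor C5aR1. The 10 genes were taken by name and comprised the ligands Hbegf, Areg, Ereg, Tgfa, Btc, Egf and Epgn and the receptors Egfr, Erbb2 and Erbb3. For each gene the probeset that named this gene alone was used. Such a probeset was found for 9 of the 10, 6 ligands and 3 receptors, of 19938 genes measured in the same way. Areg, which encodes the ligand amphiregulin, was paired with no such probeset in the annotation used and was not analysed here.

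Osteoblasts were grown from the long bones of 3 male wild-type C57BL6/J mice aged 8 to 12 weeks, called here mice 2, 4 and 5 after their labels. Cells of passage 2 to 3 were kept in osteogenic differentiation medium for 14 days. The cells of each mouse were then divided, and 1 culture was left unstimulated in proliferation medium while the other received recombinant murine C5a in that medium for 4 h. RNA of each culture was hybridised to 1 Affymetrix Mouse Gene 1.0 ST array, giving 3 arrays per group and 6 in all. No age, sex or strain therefore separated the groups, and every comparison rested on 3 mice and a single time point.

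EGF family ligands are made as membrane proteins, and metalloproteinases of the ADAM family cut them free. Soluble ligands bind EGFR, ERBB3 or ERBB4, the receptors pair up with each other, and ERBB2, which has no known ligand of its own, is the preferred partner. The paired receptors recruit adaptors such as GRB2 and GAB1 and feed the RAS to ERK cascade and phosphoinositide 3-kinase, while CBL ligases, LRIG proteins and the induced inhibitor ERRFI1 limit them. In bone, EGFR signalling is known to favour the growth of osteoprogenitors and to hold back their maturation.

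Egfr and Erbb2 were the 2 receptor genes whose change had 1 sign in all 3 mice, and their signs were opposite. The 250 bases before the start site of each are therefore shown, 5′ to 3′, from RefSeq (GRCm38.p6, plus strand for both). The Egfr stretch is chr11:16751953-16752202 and the Erbb2 stretch is chr11:98412234-98412483. Capitals mark a GC box (GGGCGG or, on the other strand, CCGCCC).
Egfr: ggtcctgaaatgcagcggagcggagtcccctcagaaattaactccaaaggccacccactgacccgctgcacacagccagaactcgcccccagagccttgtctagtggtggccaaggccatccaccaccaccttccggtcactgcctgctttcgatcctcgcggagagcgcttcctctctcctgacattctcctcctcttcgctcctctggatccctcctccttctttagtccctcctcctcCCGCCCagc
Erbb2: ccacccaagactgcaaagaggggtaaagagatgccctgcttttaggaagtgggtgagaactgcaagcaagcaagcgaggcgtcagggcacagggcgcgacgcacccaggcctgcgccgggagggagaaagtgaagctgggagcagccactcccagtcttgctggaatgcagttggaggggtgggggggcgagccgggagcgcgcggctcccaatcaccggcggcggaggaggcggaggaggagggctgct
The promoter windows as given, 250 bases before to 50 bases after the start, were searched on both strands for this GC box, for an AP-1 site (TGANTCA), for a CRE (TGACGTCA) and for a TATA box (TATAAA). In the Egfr window 1 GC box began 9 bases before the start (position -9), and no other of these motifs was present. The Erbb2 window held none of them. Among the other genes of the family with a window, Tgfa and Areg each had 2 GC boxes, and Areg also 1 CRE and 1 TATA box. Epgn had 1 TATA box, and Egf and Btc had none of these motifs. A link between the motifs and the changes was not tested. A GC box was present in 35.7% of 32851 windows of this length, an AP-1 site in 7.81%, a CRE in 1.79% and a TATA box in 13.6%. The GC content was 62.33% for Egfr and 66% for Erbb2, against a median of 52.67% over these windows. These are matches of letters, and no binding was measured.

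All values below are log2 intensities, normalized by the authors with the robust multiarray average (RMA). A difference of 1 on this scale is a doubling. Each probeset has its own brightness, so changes and differences between mice were taken only within the same probeset. A place above or below the array median and a sum of markers do set different probesets together. In such a sum the brightest probesets weigh most. The change in a mouse was its C5a array minus its unstimulated array, and the 3 changes were tested with limma with the mouse as a block. P-values are given unadjusted and adjusted over all 35556 probesets. The thresholds of the study's methods asked for a fold change of 1.5 or more with an unadjusted p below 0.05. At an adjusted p under 0.05, 4 probesets (0.0112%) were called in either direction. At the thresholds of the methods 1.71% of probesets were called higher and 1.57% lower with C5a, and 16.2% had an unadjusted p under 0.05.

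Of the 9 genes, none passed the adjusted threshold by limma, and 2 had an unadjusted p under 0.05, Egfr (lower) and Hbegf (higher). The same 2 passed the thresholds of the methods. For none of the 9 did the arrays of the groups separate fully, while over all probesets the C5a arrays all lay above the unstimulated ones for 7.89% and all below for 7.29%. The change had 1 sign in all mice for 3 of the 9, being above 0 for Erbb2 and below 0 for Egfr and Egf, against 18.3% of all probesets for above and 17.7% for below. The median change of the 9 genes was -0.034, that of the 19938 genes -0.0064.

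Hbegf encodes heparin-binding EGF-like growth factor, a ligand of EGFR and ERBB4. In unstimulated cultures its values were 9.79 in mouse 2, 9.31 in mouse 4 and 9.26 in mouse 5. With C5a they were 10.53, 9.28 and 10.54. The C5a cultures of mice 2 and 5 thus stood above every unstimulated culture, whereas that of mouse 4 stayed among them. The changes were 0.74, -0.028 and 1.28, and the group means went from 9.45 ± 0.29 (SD, n = 3) to 10.12 ± 0.73 (SD, n = 3). The mean difference of 0.67 (SE 0.25, 95% interval 0.0020 to 1.33), or 1.59-fold, had a limma p of 0.0495 and an adjusted p of 0.308. The difference was 1.01 without mouse 4 (adjusted p by limma 0.111), but 0.36 without mouse 5 and 0.63 without mouse 2, neither of which passed the thresholds of the methods. Centring each array on its median also ended this call (limma p of 0.0513), as did the fit without the mouse as a block (0.124). Over the 17 alternatives the adjusted p ran from 0.111 to 0.882, and the difference stayed above 0.

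Ereg encodes epiregulin, which binds EGFR and ERBB4. Its unstimulated values were 10.19, 9.51 and 10.20 in mice 2, 4 and 5, and its C5a values were 11.62, 9.20 and 11.00. As for Hbegf, mice 2 and 5 were higher with C5a and mouse 4 was not, with changes of 1.43, 0.80 and -0.31. Mouse 4 had the lowest value in each group. The difference between the group means of 9.97 ± 0.40 (SD, n = 3) and 10.60 ± 1.26 (SD, n = 3) was 0.64 (SE 0.33, 95% interval -0.24 to 1.51). It did not pass the thresholds, with a limma p of 0.118 and an adjusted p of 0.466, and the interval reached from below 0 to more than a doubling. Without mouse 4 the difference was 1.11 (adjusted p by limma 0.111), past the thresholds of the methods. Without mouse 2 it was 0.24, and the adjusted p ran from 0.111 to 0.984 over the 17 alternatives.

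Tgfa, Btc, Egf and Epgn encode the ligands transforming growth factor alpha, betacellulin, EGF and epigen. Their values moved little between arrays, and no interval reached a change of 0.31 in either direction. Tgfa was at 6.72, 6.66 and 6.70 unstimulated and at 6.63, 6.64 and 6.70 with C5a, a difference of -0.036 (95% interval -0.21 to 0.14). For Btc the values were 5.52, 5.55 and 5.48 against 5.43, 5.37 and 5.58, with a difference of -0.057 (95% interval -0.28 to 0.17). These groups overlapped for both genes.

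Egf gave 5.63, 5.66 and 5.57 unstimulated and 5.61, 5.61 and 5.54 with C5a. It was lower in each of the 3 mice, by a mean of -0.034 (95% interval -0.21 to 0.14). Epgn gave 4.20, 4.38 and 4.43 against 4.47, 4.33 and 4.35, with a difference of 0.048 (95% interval -0.21 to 0.30). The unadjusted limma p-values of these 4 ligands lay between 0.535 and 0.647. Btc, Egf and Epgn, together with the receptor gene Erbb3, lay below the median of all probesets (5.89 to 5.93) on each of the 6 arrays, and the other 5 genes lay above it on each. A position below the median is no measure of absence.

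Epgn, Ereg, Areg and Btc lie next to each other, in this order, on mouse chromosome 5 (GRCm38.p6), between Mthfd2l and Parm1. Ereg was the only 1 of the 3 measured ligands of this row above the array median and the only 1 whose values spread by more than 1 between arrays. Its neighbour on the far side of Epgn, Mthfd2l, which encodes a mitochondrial folate enzyme, gave C5a minus unstimulated differences of 0.18, -0.25 and 0.49 in mice 2, 4 and 5, the same signs as Ereg. Those of Parm1, at the other end, were -0.096, 0.38 and -0.059. Neither neighbour passed a threshold (limma adjusted p = 0.778 for Mthfd2l and 0.860 for Parm1).

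**Figure D1:**
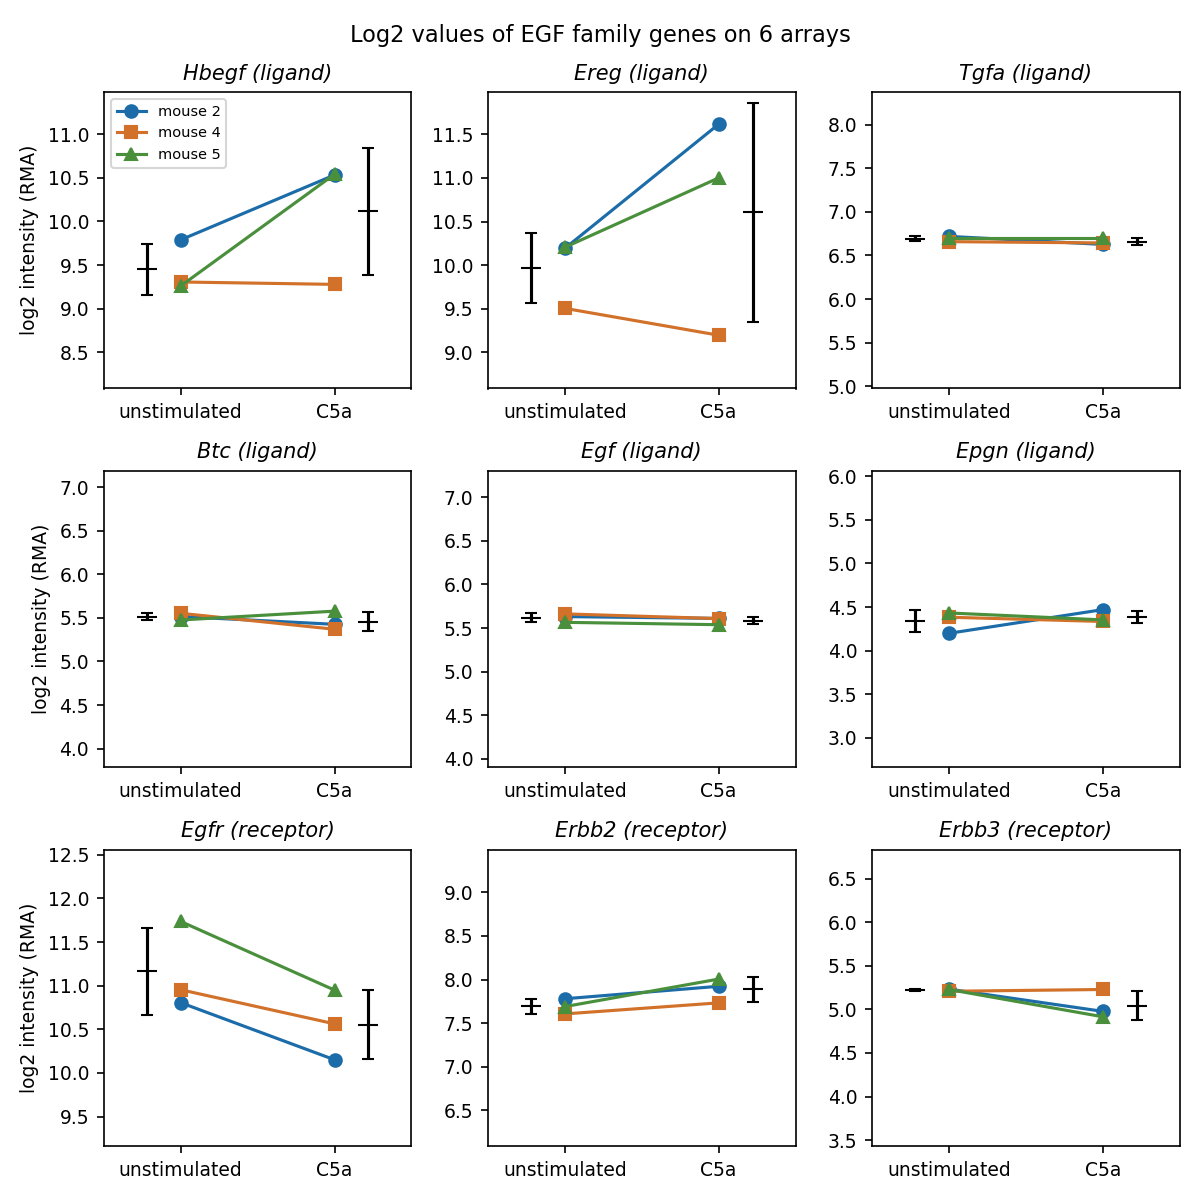
Log2 intensities (vertical axis, RMA) of the 9 measured EGF family genes in the unstimulated and C5a cultures, with a line joining the 2 cultures of a mouse and bars for the group mean ± SD (n = 3). All panels span the same range. The C5a points of Hbegf and Ereg lie above the unstimulated ones in mice 2 and 5 but not in mouse 4, those of Egfr lie below in all 3 mice, and the lines of Tgfa, Btc, Egf and Epgn stay nearly flat.

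Egfr encodes the receptor of EGF, TGF alpha, amphiregulin and the other EGFR ligands. Its unstimulated values were 10.81 in mouse 2, 10.95 in mouse 4 and 11.74 in mouse 5, and its C5a values were 10.15, 10.56 and 10.95. The C5a value was the lower one in each mouse, although the groups overlapped because mouse 5 was high in both. The changes were -0.65, -0.39 and -0.79. The group means of 11.17 ± 0.50 (SD, n = 3) and 10.55 ± 0.40 (SD, n = 3) differed by -0.61 (SE 0.10, 95% interval -0.87 to -0.35), or 1.53-fold. Egfr had the smallest p of the 9 genes, with a limma p of 0.00201 and an adjusted p of 0.110.

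Leaving out mouse 2 or mouse 4 gave Egfr differences of -0.59 and -0.72. Leaving out mouse 5 gave -0.52, below the 1.5-fold threshold, with a limma p of 0.0123. When only probesets naming 1 gene were tested, Egfr passed the adjusted threshold (adjusted p by limma 0.0412), as 3.65% of those probesets did. Over all alternatives its adjusted p ran from 0.0412 to 0.852, and its difference was below 0 in all 17. Without the mouse as a block the same difference had a limma p of 0.0930 and passed none.

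Erbb2 encodes the receptor that has no ligand of its own. Its values were 7.78, 7.61 and 7.69 unstimulated and 7.92, 7.73 and 8.01 with C5a. All 3 mice were higher with C5a, by 0.14, 0.13 and 0.32, and the groups overlapped. The difference of 0.20 (SE 0.077, 95% interval -0.0047 to 0.39) had a limma p of 0.0537 and an adjusted p of 0.321, and its upper bound lay below the 1.5-fold threshold. A second probeset that names Erbb2 along with another gene was not used.

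Erbb3 encodes a receptor with an impaired kinase that signals through its partners. Unstimulated values were 5.23, 5.21 and 5.23, and C5a values were 4.98, 5.23 and 4.92. Mice 2 and 5 were lower with C5a, by changes of -0.26 and -0.31, and mouse 4 differed by 0.021. The difference was -0.18 (95% interval -0.43 to 0.062), with a limma p of 0.112 and an adjusted p of 0.454.

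**Figure D2:**
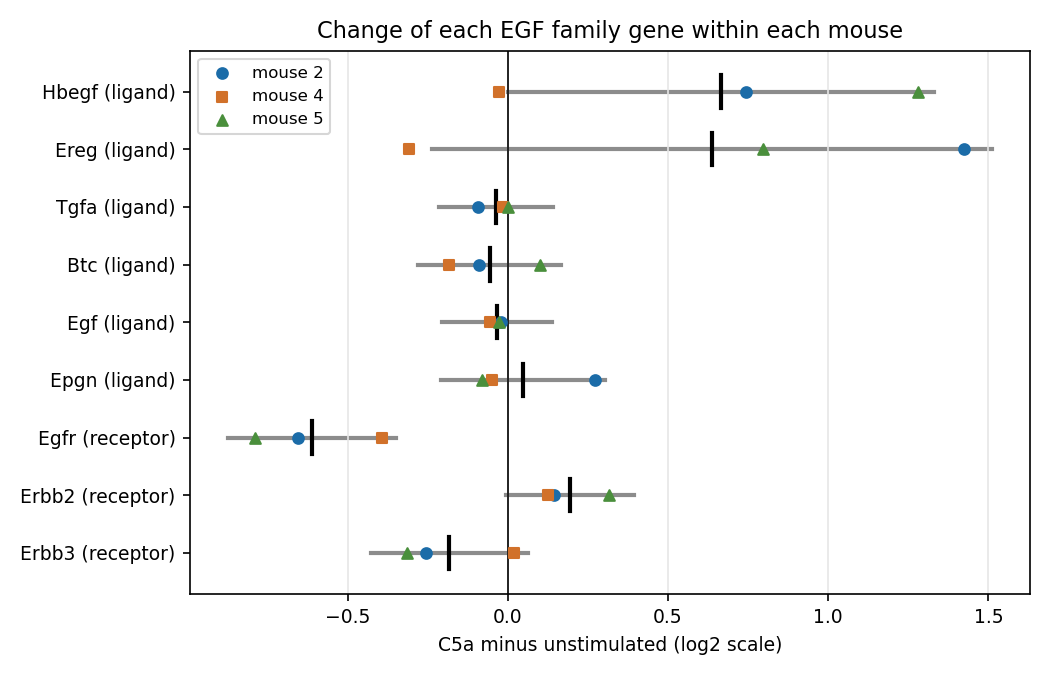
Change of each of the 9 genes (C5a minus unstimulated, log2 scale) in mice 2, 4 and 5 (points), with the mean (vertical tick) and its 95% limma interval (grey bar). The interval of Egfr, from -0.87 to -0.35, lies farthest from 0, that of Hbegf starts just above 0, and mouse 4 lies apart from the other mice for Hbegf and Ereg.

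The mice were also compared with each other. With the treatment in the fit, none of the 9 genes differed between mice at an adjusted p under 0.05 by limma's F-test, and 2, Egfr and Ereg, had an unadjusted p under 0.05. The limma p was 0.00273 for Egfr (adjusted p 0.0762) and 0.0294 for Ereg (adjusted p 0.257). Over all probesets 2.5% passed the adjusted threshold and 15% had such an unadjusted p. The means of the 2 Egfr values in mice 2, 4 and 5 were 10.48, 10.76 and 11.34, a range larger than the change with C5a. Without mouse 4, the difference in Egfr between mice 2 and 5 passed the adjusted threshold (adjusted p by limma 0.0463). Ereg had means of 10.90, 9.35 and 10.60, with mouse 4 lowest.

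For 3 of the 9 genes, Hbegf, Ereg and Erbb3, the change in mouse 4 had the opposite sign to that in both other mice. Mouse 2 stood alone in this way for 1 gene (Epgn), and so did mouse 5 (Btc). Over the 19938 genes the shares were 20.2% for mouse 4, 15.5% for mouse 2 and 18.6% for mouse 5.

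Markers of other cell types were examined beside those of osteoblasts. Of 10 osteoblast markers 8 were measured, 7 of them above the array median on all arrays, and their log2 summed level ran from 15.31 to 15.81 unstimulated and from 15.24 to 15.78 with C5a. Within this narrow range of the sum, 7 of the 8 were lower in mouse 5 than in both other mice, and 5 differed between mice at an adjusted p under 0.05 by limma's F-test. Ibsp, which encodes bone sialoprotein, was at 11.75, 12.88 and 7.56 in unstimulated mice 2, 4 and 5 and at 11.26, 12.62 and 7.02 with C5a. Of 10 macrophage markers all were lower in mouse 5 than in both other mice. Their log2 summed level in mice 2, 4 and 5 was 14.37, 14.67 and 10.14 unstimulated and 13.99, 14.30 and 10.33 with C5a. In the unstimulated culture of mouse 5 the single markers lay between 4.99 (Ptprc) and 8.93 (Lyz2), above the array median for 7 of the 10 and below it for Ptprc, Itgam and Adgre1. Mouse 5, lowest in all 10 of these markers and in 7 of the 8 osteoblast markers, was highest in Egfr. With C5a 9 of the 10 macrophage markers had a mean change below 0 (median -0.20), against 10393 of all 19938 genes. In all 3 mice 3 of the 10 were lower and none higher, and in mouse 5 their summed level was higher with C5a. Of the 10, 1, Mrc1, passed the thresholds of the methods. The part of macrophages, or of the differences in osteoblast markers, in the values of Egfr and of the other genes was not tested.

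The summed levels of 5 endothelial markers (7.76 to 7.93) and of 6 epithelial markers (8.22 to 8.47) varied little over the arrays, and 5 of the 6 epithelial markers lay above the median on no array. Those of 5 adipocyte markers ranged from 8.24 to 8.60. Those of 5 osteoclast markers ranged from 10.72 to 11.75, with 3 of the 5 lower and 1 higher in mouse 5 than in both other mice. Of these 5, 1 differed between mice at an adjusted p under 0.05 by limma's F-test. This was Atp6v0d2, at 8.02, 10.01 and 5.31 in unstimulated mice 2, 4 and 5. None of the 5 passed the thresholds of the methods with C5a. In RNA of whole cultures, fewer cells of a type and less RNA per cell cannot be told apart.

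**Figure D3:**
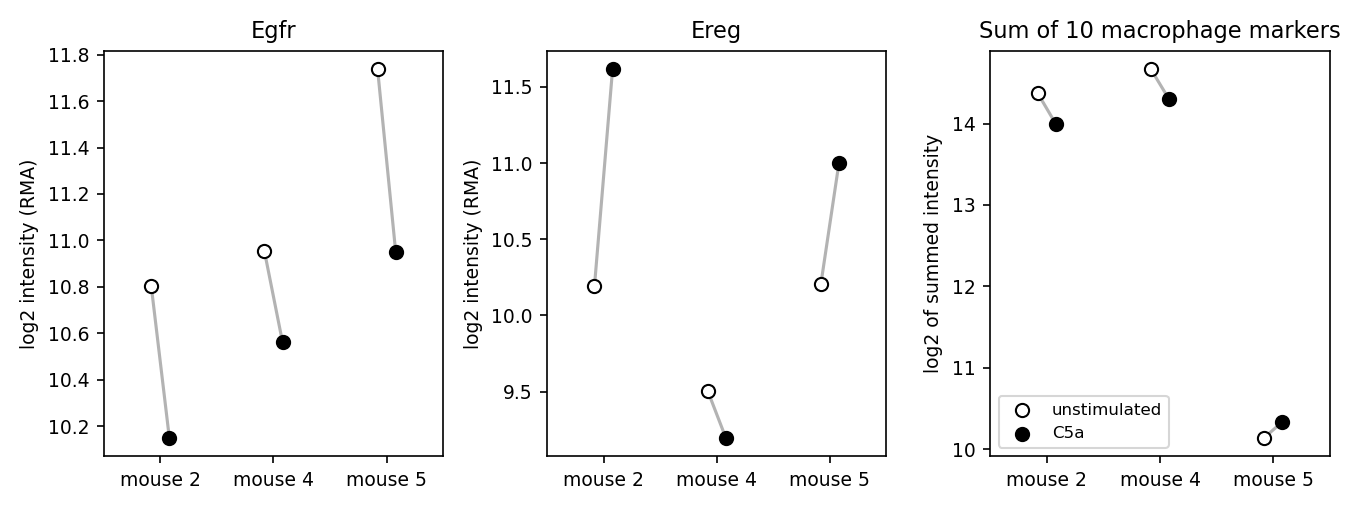
Log2 intensity of Egfr and of Ereg, and log2 of the summed intensity of 10 macrophage markers, in the unstimulated (open) and C5a (filled) cultures of mice 2, 4 and 5; each panel has its own vertical scale. Mouse 5 is highest in Egfr and lowest in the macrophage markers, while Ereg is lowest in mouse 4.

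By the likeness of log2 values over the 6 arrays, among 2187 genes whose values ranged by at least 1, those most like Egfr were Slc5a3 (Pearson's r = 0.993), Celf5 (0.993) and B4galt4 (0.989). Slc5a3, which encodes a myo-inositol transporter, was at 9.17, 9.71 and 11.16 unstimulated and at 8.03, 8.73 and 9.79 with C5a. It was thus lower with C5a in every mouse and highest in mouse 5, as Egfr was. In all, 108 of these genes had an r above 0.9 with Egfr. Those most like Hbegf were Gprc5b (0.983), Zswim4 (0.981) and Dusp10 (0.956), and 25 genes had an r above 0.9. Dusp10, a phosphatase of p38 and JNK, was at 9.16, 7.93 and 7.40 unstimulated and at 10.08, 8.22 and 9.87 with C5a. The 6 points share 3 mice, so these correlations describe mouse and treatment together.

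The rest of the pathway was described by 5 lists, of 62 measured genes in all. None of the 62 passed the adjusted threshold by limma when all probesets were tested. With only probesets naming 1 gene tested, where 3.65% of probesets passed, 9 of the 62 did, Adam19, Timp3, Cblb, Sh3kbp1, Socs5 and Fosl1 as higher and Gab1, Dusp5 and Ier3 as lower. With the dimmest 40% of probesets left out, where 1.75% passed, 6 of 59 did, namely Adam19, Timp3, Fosl1, Gab1, Dusp5 and Ier3. These 2 counts were added after seeing the data. The lists were chosen with earlier results of these data known, so the counts are no test of a list. All measured genes of the lists except Erbb4, Nrg3 and Nrg4 lay above the array median on all 6 arrays. Over all genes 11030 of 19938 did, so the shares of all probesets are not for genes of like brightness. Over all 19938 genes, 1647 were higher and 2376 lower at an unadjusted p under 0.05 by limma. At the thresholds of the methods 443 were higher and 440 lower. The receptor Erbb4 and the neuregulin ligands Nrg1 to Nrg4 were all measured, and of these 5 genes none passed those thresholds or had an unadjusted p under 0.05. Mean differences were -0.086 for Erbb4, 0.0085 for Nrg1, 0.089 for Nrg2, 0.095 for Nrg3 and -0.043 for Nrg4. The widest 95% interval was that of Nrg1, from -0.37 to 0.38.

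Of 10 measured genes of ligand shedding, 6 had a mean change above 0 and 4 below it (median 0.32). At the thresholds of the methods 3 were called higher, among them Timp3, an inhibitor of shedding, and none lower. Over all 19938 genes these counts were 443 and 440. At an unadjusted p under 0.05 by limma 5 were higher and none lower, against 1647 and 2376 of all genes. In all 3 mice 5 were higher and 3 lower with C5a. The C5a arrays all lay above the unstimulated ones for 5 and all below for 1. Adam19, a membrane metalloproteinase, was at 8.45, 8.80 and 9.04 unstimulated and at 10.36, 9.78 and 10.48 with C5a, a difference of 1.44 (SE 0.19, adjusted p by limma 0.0919). The third gene called was Adam12, a metalloproteinase known to shed HB-EGF, with changes of 2.88, 0.97 and 0.89.

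Timp3 encodes an inhibitor of ADAM17 and other metalloproteinases, so it does not do what the name of the list says. Its values were 12.57, 11.54 and 11.82 unstimulated and 13.64, 12.76 and 13.01 with C5a. Its changes of 1.07, 1.22 and 1.19 were nearly the same in the 3 mice, with a mean of 1.16 (SE 0.072, adjusted p by limma 0.0704). Rhbdf1 (0.45, adjusted p by limma 0.175) and Frmd8 (0.45, adjusted p by limma 0.142), which help to mature and hold ADAM17 at the surface, were higher in every mouse but below the 1.5-fold threshold. Adam17 and Adam10, the main sheddases of EGFR ligands, differed by -0.17 (95% interval -0.38 to 0.046) and -0.13 (95% interval -0.36 to 0.11).

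Among receptor adaptors and effectors, 18 of 23 listed genes were measured. None was called higher and 2 were called lower at the thresholds of the methods, 2 were higher and 3 lower at an unadjusted p under 0.05 by limma, and the median change was -0.014 (-0.062 without mouse 5 and 0.019 without mouse 4). Gab1, the docking adaptor of EGFR, was at 8.39, 8.61 and 8.91 unstimulated and at 7.77, 7.93 and 8.21 with C5a. Every C5a value lay below every unstimulated one, with a mean change of -0.67 (SE 0.067, adjusted p by limma 0.0858). Pik3r1, the regulatory subunit of phosphoinositide 3-kinase, changed by -1.20, -0.42 and -1.03 (mean -0.89, adjusted p by limma 0.122). The difference was -0.22 for Plcg1, a phospholipase that binds the receptor, and 0.18 for Pik3ca, the catalytic subunit of the kinase, both below the 1.5-fold threshold.

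Receptor inhibitors and degradation genes were measured for all 18 listed. At the thresholds of the methods 2 were higher and none lower, at an unadjusted p under 0.05 by limma 7 were higher and 2 lower, and the median change was 0.13. Cblb, a ubiquitin ligase of the CBL family, was at 8.69, 8.78 and 8.96 unstimulated and at 9.80, 9.32 and 9.75 with C5a, a change of 0.81 (SE 0.13, adjusted p by limma 0.104). Socs5, which promotes the breakdown of EGFR, changed by 0.75, 0.41 and 0.86 (mean 0.67, adjusted p by limma 0.111). The difference was 0.45 for Sh3kbp1, the CBL partner in receptor uptake, and -0.27 for Lrig2, both below the 1.5-fold threshold. Errfi1, the inhibitor of EGFR that EGFR signalling itself induces, had differences of 0.39, -1.30 and 0.31 in mice 2, 4 and 5, with the sign of mouse 4 alone as for Ereg, and passed no threshold (adjusted p by limma 0.885). Errfi1 was named after its values were seen. The count of genes called higher was 5 without mouse 4 and 1 without mouse 5, and the median change of the list was 0.39 and 0.061, and 0.075 without mouse 2.

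Delayed early genes are those that rise some time after a growth factor is added, in many cell types. The list is not purely of this kind, as it held Ier3, which the paper counts among the immediate early genes. Of those listed, Ier3 and Dusp5 are also in the study's own gene tables. All values here come from the arrays that the study analysed, so no direction given is independent of it. Of 12 listed, 11 were measured, of which 2 were higher and 3 lower at the thresholds of the methods, 2 were higher and 4 lower at an unadjusted p under 0.05 by limma, and the median change was 0.26. Fosl1, an AP-1 subunit, was higher by 1.20 (SE 0.19, adjusted p by limma 0.106) and Plaur, the urokinase receptor, by 1.18 (SE 0.25, adjusted p by limma 0.137), both in all 3 mice. Ier3, an early gene linked to survival and ERK activity, changed by -1.81, -1.91 and -2.49 (mean -2.07, SE 0.15, adjusted p by limma 0.0704). Dusp5, a nuclear phosphatase of ERK, was at 11.04, 10.53 and 9.98 unstimulated and at 8.87, 8.03 and 8.78 with C5a (mean change -1.96, adjusted p by limma 0.0955). Phlda1, the other gene called lower, changed by -0.15, -1.14 and -0.74. For 4 of the 11 genes the change in mouse 4 stood alone in sign (20.2% of all genes). For none did that of mouse 2 (15.5% of all genes) or of mouse 5 (18.6%). Without mouse 4, 5 genes were called higher and 2 lower, without mouse 2, 2 and 4, and the median change ran from -0.19 without mouse 2 to 0.71 without mouse 4.

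**Figure D4:**
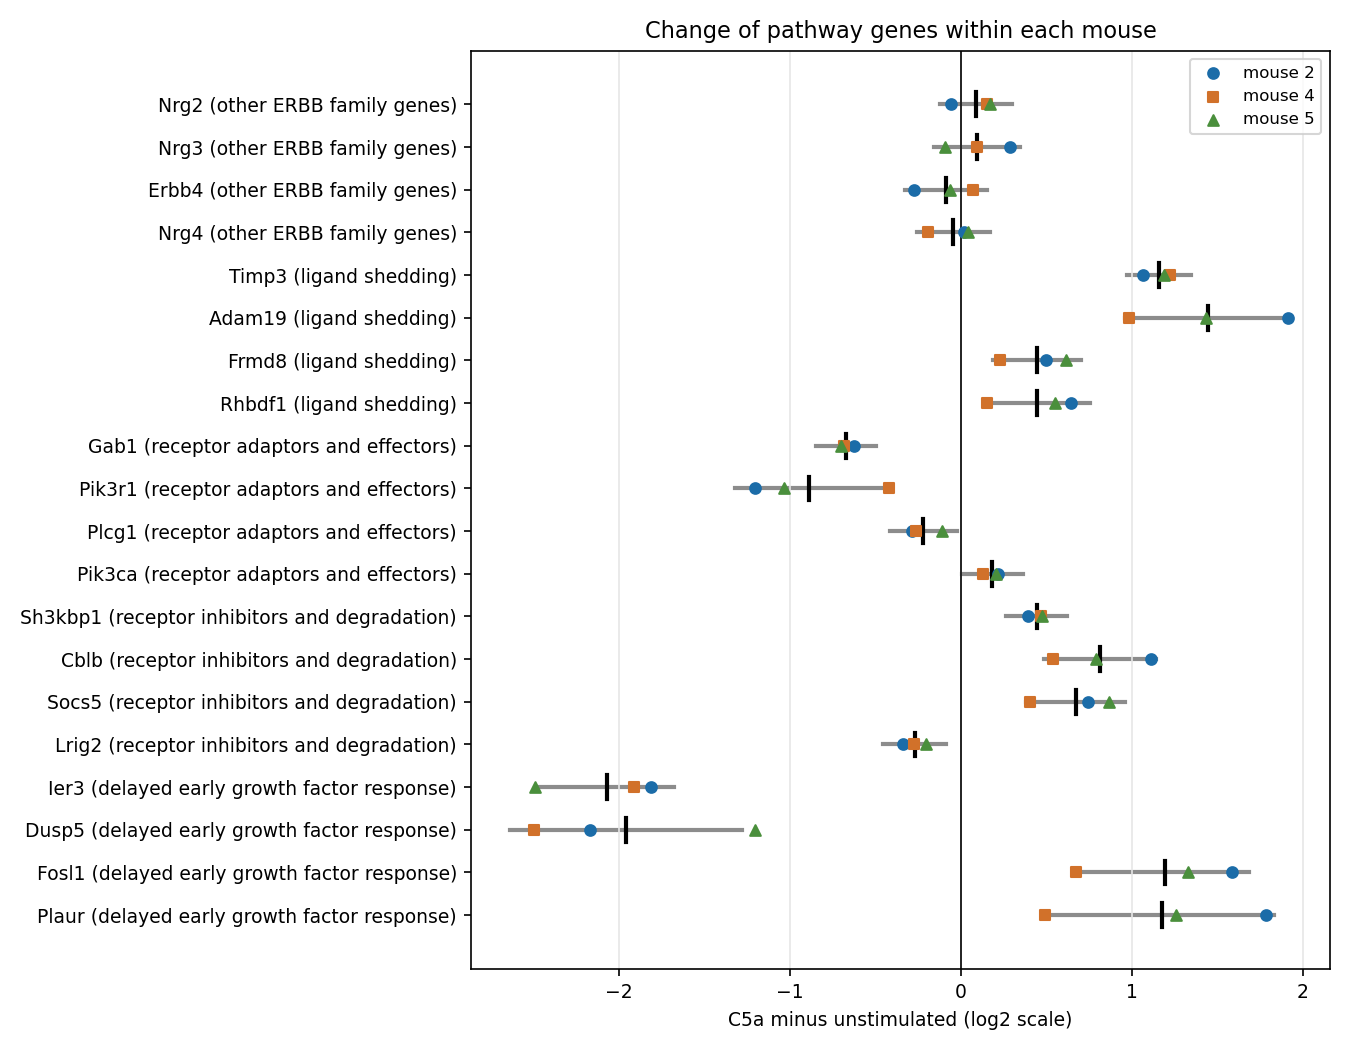
Change of the 4 genes with the smallest p in each of 5 pathway lists (C5a minus unstimulated, log2 scale) in mice 2, 4 and 5 (points), with the mean (vertical tick) and its 95% limma interval (grey bar). The intervals of Timp3, Adam19, Frmd8, Rhbdf1, Pik3ca, Sh3kbp1, Cblb, Socs5, Fosl1 and Plaur lie above 0. Those of Gab1, Pik3r1, Plcg1, Lrig2, Ier3 and Dusp5 lie below it, and those of the other ERBB family genes span it.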

How the data were processed

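Gene expression was measured in 6 cultures of osteoblasts from 3 mice on Mouse Gene 1.0 ST arrays. Per the labels and the study's methods, the authors used Affymetrix Expression Console along with BRB-ArrayTools and deposited log2 intensities per probeset after RMA, with versions not given in the sources used here. Values were used as deposited, without filter. Arrays have no read depth, and their number limits the precision.

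All 35556 probesets were tested with limma (version 3.58.1, R 4.3.3; lmFit and eBayes, 2 residual and 2.77 prior degrees of freedom), with the mouse as a block and Benjamini-Hochberg adjustment. The fits were tested on simulated data first. The fold threshold that the methods state was read as at least 1.5. Cultures of 1 number are paired because they came from the divided cells of 1 animal. Deviations from the group means correlated at 0.495 to 0.684 within mice and at -0.446 to -0.0353 between mice. The deviations of the 3 mice of a group sum to 0, so the negative values follow in part from the positive ones.

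Genes came from probesets naming 1 gene (21789, against 1621 naming several and 12146 naming none), and 21698 of these had an Entrez Gene ID in the RefSeq gene table. With several probesets for a gene, that with the highest mean was used. The members, gene lists and marker lists were chosen with earlier results of these data known. Named were the members, the 4 genes of each list with the smallest p, and for Egfr and Hbegf the 3 most alike genes. Further genes called at the thresholds of the methods, Adam17, Adam10 and Errfi1 were named after their values were seen. Promoter windows were found for 7 of the 10 members. Alternatives were other tests (no block, the methods' t-test, a paired t-test, a variance trend), filters, scalings and left-out arrays or mice.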

Additional observations from a re-analysis of the deposited data

How the results depend on the processing

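Of the 9 genes, 2 passed the thresholds of the methods, and this count was 0 without the replicate block, 0 by the methods' t-test, 1 by a paired t-test (Egfr), 1 after median centring (Egfr), and 0 to 3 when a mouse or a single array was left out. The count at the adjusted threshold was 0, and 1 (Egfr) with probesets naming 1 gene only. Of all probesets, 4 passed the adjusted threshold, against 0 by the methods' t-test, 0 by the paired t-test, 373 with the dimmest 40% left out, 795 with probesets naming 1 gene only and 0 to 3 when a mouse or array was left out. The thresholds of the methods were passed by 1166 probesets, against 665 by the methods' t-test, 517 by the paired t-test and 701 to 1754 when a mouse or array was left out. Leaving out a mouse gave 0 to 1 of the 9 genes that differed between mice. The change of sign in small differences came only with left-out mice or arrays, where Btc ran from -0.14 to 0.0061, Epgn from -0.064 to 0.11, Erbb4 from -0.17 to 0.0067, Nrg3 from -0.012 to 0.19 and Nrg4 from -0.085 to 0.031. Among the 29 named genes, 445 of the values under alternatives kept their direction and side of the thresholds of the methods, 31 lost the call and 4 gained it. The cause was not tested. Left-out single arrays were fitted without the block, so the level of that mouse enters the difference. Counts per pathway list without each mouse and with other sets of probesets were added after seeing the data. No member had several probesets naming it alone, so another choice of probeset was not run.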
